A study of Danio rerio with 9 samples.

Results

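Cells of the oligodendrocyte lineage were set against neurons from the trunk of zebrafish at 72 hours post fertilization, in 6 of the 9 libraries of the series. The comparison takes the 3 libraries whose titles name OPC and the 3 whose titles name neuronal cells. Oligodendrocyte lineage cells were taken as double positive for both reporters from AB* fish carrying Tg(olig2:dsred) and Tg(sox10:megfp). Neurons were taken from AB* fish carrying Tg(nbt:dsred), on that reporter alone. Each library was made from 1750 ± 750 cells of dissociated trunk pieces, after the anterior part of the embryos had been cut away. The remaining 3 libraries, of Schwann cells from AB* fish carrying Gt(foxd3:mCherry) and Tg(sox10:mEGFP), served only to place the level of the transcripts found. A red reporter driven by olig2 or by nbt was thus present in both groups compared. Of these groups, only the oligodendrocyte lineage fish carried a green sox10 reporter, as the Schwann cell fish also did. Differences between the cell populations cannot be told apart from differences between the fish lines or the ways their cells were collected. Whether replicate libraries derive from separate clutches is not stated in the labels, so each p-value reflects the spread of these libraries alone, part of which may be technical.

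Oligodendrocytes wrap the axons of the central nervous system in myelin, and their precursors migrate and divide before they differentiate. In the spinal cord, precursors that express the transcription factor olig2 give rise to motor neurons and later to oligodendrocyte lineage cells, which then also express the transcription factor sox10. Reporters driven by olig2 therefore label some motor neurons as well, and the second reporter separates the glial cells from them. Neurons are known for high levels of tubulins, neurofilaments, ion channels and synaptic proteins, oligodendrocytes for myelin proteins and lipid synthesis.

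The deposited tables name transcripts by ID and do not pair the IDs with genes, and 0 of 52216 IDs matched the tables of gene names used here. The populations could therefore not be checked against marker genes or against olig2 and sox10, and no function can be given to a transcript. At most 2 transcripts per direction are named by ID, and the others are described by their length in bases. Library totals ran from 11439759 to 17126213 estimated counts in the 6 libraries. Spearman correlations between libraries were 0.486 to 0.659 within the oligodendrocyte lineage, 0.646 to 0.745 within neurons and 0.325 to 0.51 between them. Oligodendrocyte lineage replicate 3 stood apart in its group, correlating at 0.486 and 0.497 with the other libraries, which correlated at 0.659 with each other. In bulk samples, fewer cells of a type and less RNA per cell cannot be told apart.

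The oligodendrocyte lineage and neurons differed in 278 of 21324 transcripts tested, which is 1.3%, and most of these were far higher in neurons. There were 61 transcripts (0.286%) higher in the oligodendrocyte lineage, against 217 (1.02%) higher in neurons. The called transcripts of each side also had different profiles. Those higher in the oligodendrocyte lineage were mostly abundant there and still present in neurons, while those higher in neurons were mostly near the counting limit in the oligodendrocyte lineage. Calls are from edgeR's quasi-likelihood test on the 6 libraries, two-sided, with p-values adjusted by Benjamini-Hochberg and a threshold of 0.05. At an unadjusted p under 0.05, 800 transcripts were higher in the oligodendrocyte lineage and 1926 in neurons.

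**Figure D1:**
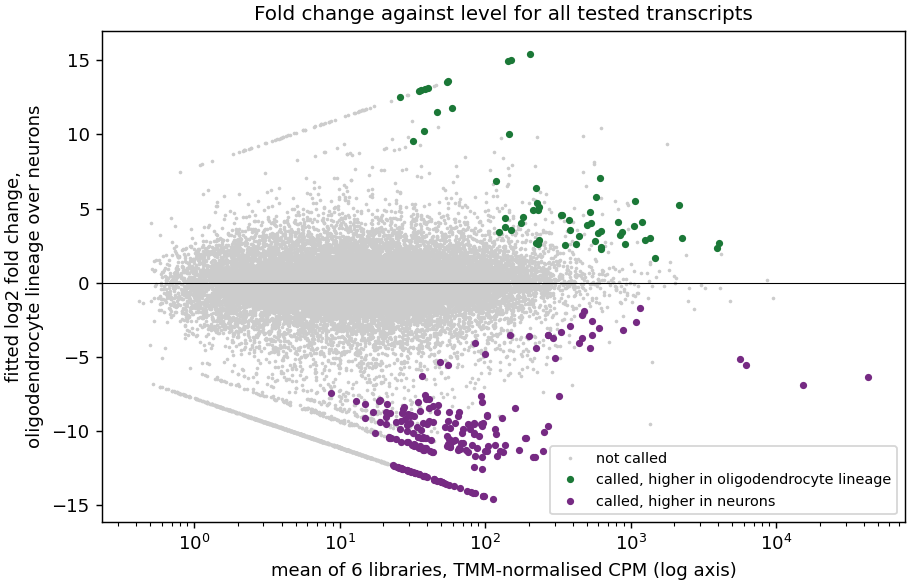
Each point is a transcript, with its mean over the 6 libraries in TMM-normalised CPM on a log axis and its fitted log2 fold change, positive where the oligodendrocyte lineage was higher. The 61 called transcripts in green lie mostly at high levels with moderate fold changes, the 217 in purple mostly at log2 fold changes of 8 or more in size. Straight lines of points at the edges are transcripts with no or very few counts in 1 group.

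The number of calls rested on each library of the neuron group. Without neurons replicate 1, 2 or 3 edgeR called 0 transcripts in each case, with 2739, 3214 and 2970 at an unadjusted p under 0.05. Without oligodendrocyte lineage replicate 1, 2 or 3 it called 124, 11 and 261. When all 9 libraries were fitted together, so that Schwann cells shared the estimate of spread, it called 20 of 23408 transcripts (0.0854%), all of them among the 278.

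ENSDART00000030946.5, of 2351 bases, led the transcripts higher in the oligodendrocyte lineage. Levels are given as CPM, library-scaled counts with TMM factors applied. The oligodendrocyte lineage libraries held 1063, 892 and 1454 CPM of it, the neuron libraries 25.1, 21.2 and 15.9 CPM. Every oligodendrocyte lineage library thus lay far above every neuron library, and each neuron library still held at least 196 counts. Means were 1136 ± 288 and 20.7 ± 4.595 CPM (SD, n = 3 each), a ratio of 54.8. The log2 fold change was 5.77 (SE 0.408, edgeR adjusted p = 0.0115). Schwann cells were divided, with 105 CPM in replicate 1 and 0.564 and 0.407 CPM in replicates 2 and 3. In the fit of all 9 libraries this transcript was not called (edgeR adjusted p = 0.243).

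ENSDART00000104493.4, of 2072 bases, had levels of 436, 479 and 447 CPM in the oligodendrocyte lineage, while neurons had 16.03, 13.1 and 9.92 CPM. The libraries of a group were close to each other and the groups did not overlap. Means were 454 ± 21.9 and 13.0 ± 3.06 CPM (SD, n = 3 each), a ratio of 34.9, with a log2 fold change of 5.12 (SE 0.432, edgeR adjusted p = 0.0146). Schwann cells carried this transcript in every library, at 434, 221 and 334 CPM, so its level in the glia of peripheral nerves was closer to that in the oligodendrocyte lineage than to that in neurons. Without oligodendrocyte lineage replicate 2 the adjusted p was 0.0597.

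In the other direction, ENSDART00000011943.6, of 2314 bases, was at 505, 439 and 370 CPM in neurons. The oligodendrocyte lineage libraries held 1, 2 and 2 counts, or 0.0680, 0.121 and 0.170 CPM. The groups were separated by more than 3 orders of magnitude, and the ratio of the pooled counts, 17437 against 5, was 3822 with an exact 95% interval of 1638 to 11774 that covers counting error only. The log2 fold change was -11.75 (SE 0.650, edgeR adjusted p = 0.00870). Schwann cells were also low, at 1.34, 1.27 and 0.407 CPM.

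ENSDART00000007522.9, of 2392 bases, was at 191, 210 and 215 CPM in neurons, with a single count in each oligodendrocyte lineage library, or 0.0680, 0.0603 and 0.0850 CPM. Neurons varied little between libraries and the oligodendrocyte lineage was at the limit of what these depths can show. The pooled ratio of 8010 to 3 counts was 2926, with an exact 95% interval of 1001 to 14194 for counting error. The log2 fold change was -11.34 (SE 0.695, edgeR adjusted p = 0.00870). Schwann cells held 2.18, 0.141 and 1.22 CPM. All 4 named transcripts lost their calls without any single neuron library, with edgeR adjusted p-values from 0.0973 to 0.143.

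**Figure D2:**
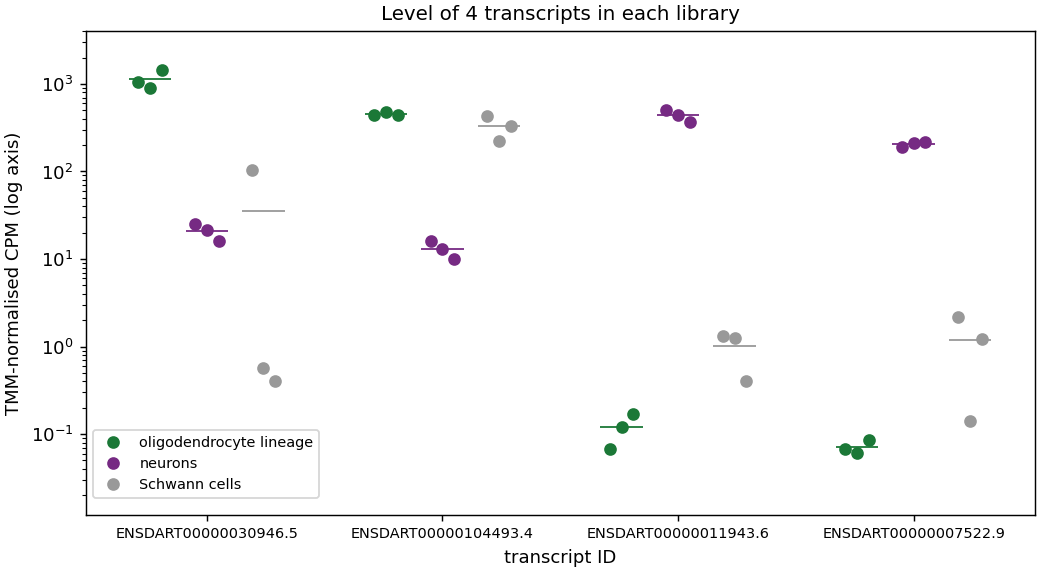
Levels of the 4 named transcripts in TMM-normalised CPM on a log axis, with a point for each of the 3 libraries of a population and a line at their mean. Oligodendrocyte lineage and neuron libraries do not overlap for any of the 4, and Schwann cells lie near the oligodendrocyte lineage for ENSDART00000104493.4 and low for both neuron transcripts.

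The 12 leading transcripts of each direction showed the same contrast in profile. Among those higher in the oligodendrocyte lineage, mean levels were 286 to 6980 CPM there, and 10 of the 12 were still at 10 CPM or more in neurons. For the 11 with counts in neurons the log2 fold changes ran from 2.35 to 9.999 in size, and 1 had no counts there. The edgeR adjusted p-values of the 12 were 0.0115 to 0.0185. Among those higher in neurons, mean levels were 140 to 12200 CPM, and 10 of the 12 were under 1 CPM in the oligodendrocyte lineage. Their log2 fold changes ran from 5.13 to 11.77 in size, with edgeR adjusted p-values of 0.00870 to 0.0146.

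Over all calls the median size of the log2 fold change was 4.21 for the 61 transcripts higher in the oligodendrocyte lineage and 10.44 for the 217 higher in neurons, beside 1.099 for all tested transcripts. With transcripts at 0 in the lower group set to the bound that 3 counts over that group give, these medians were 4.21 and 9.88. The 61 had a median level of 600 CPM in their own group, where neurons had 27.3 CPM. The 217 had a median level of 100.4 CPM in neurons and 0.0711 CPM in the oligodendrocyte lineage, which is about 1 count. A log2 fold change of 8 or more in size was found for 15 of the 61 and for 179 of the 217. The number at that size was not counted over all tested transcripts, whose upper quartile was 2.145. These counts describe the called transcripts only.

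In neurons, 39 of the 61 were at 10 CPM or more in every library, and 15 were under 1 CPM in every library. In the oligodendrocyte lineage, 23 of the 217 were at 10 CPM or more in every library, and 183 were under 1 CPM in every library. No counts at all in the lower group were found for 10 of the 61 and 46 of the 217. A further 4 and 72 had 1 to 3 counts over the whole lower group. Together, 56 of the 278 called transcripts had no counts in a group, beside 737 of the 21324 tested. The other levels were not counted over all tested transcripts, so they describe the called ones only. Every called transcript had separate groups, in the sense that the lowest library of the higher group lay above the highest library of the other. That separation was common: 9.98% of all tested transcripts were separated with the oligodendrocyte lineage above and 16.7% with neurons above.

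The direction of the calls varied with the level of the transcript. With a mean over the 6 libraries of 100 to 1000 CPM, calls on the oligodendrocyte lineage side numbered 40 and those on the neuron side 42, of 1938 tested. Above 1000 CPM the numbers were 10 and 6 of 55. Between 10 and 100 CPM they were 11 and 168 of 10930, so the excess of neuron calls lay in this class. Below 10 CPM a single transcript was called. Spread between libraries was wider in the oligodendrocyte lineage in every class from 1 CPM upwards. For 10 to 100 CPM the median SD of log2(CPM + 1) was 1.36 in the oligodendrocyte lineage and 0.787 in neurons, and 65.4% of the transcripts varied more in the oligodendrocyte lineage. Its part in the direction of the calls was not tested.

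Transcripts were also taken by their level in a single group, without the test. In neurons, 1213 transcripts were at 100 CPM or more in every library, and 48 of these (3.96%) were under 1 CPM in every oligodendrocyte lineage library. In the oligodendrocyte lineage, 1000 transcripts were at 100 CPM or more in every library, and 5 of these (0.5%) were under 1 CPM in every neuron library. Both sets otherwise overlapped broadly. A total of 498 transcripts belonged to both, 41.1% of the neuron set and 49.8% of the oligodendrocyte lineage set. The median ratio of the level in the other group to that in the own group was 0.597 for the neuron set and 0.568 for the oligodendrocyte lineage set. A mean ratio under 0.1 was found for 194 of the neuron set and 104 of the oligodendrocyte lineage set. At 500 CPM or more in every library, 0 of 121 neuron transcripts and 0 of 91 oligodendrocyte lineage transcripts were under 1 CPM in the other group.

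Gaps in detection were most common in oligodendrocyte lineage replicate 3, while the other libraries of both groups overlapped. Of transcripts at 20 CPM or more in both other libraries of their group, 19.7% were under 1 CPM in oligodendrocyte lineage replicate 3, 3.37% in replicate 1 and 4.31% in replicate 2. In neurons these shares were 0.674%, 4.91% and 2.48% for replicates 1, 2 and 3. The part of such gaps in the share of 3.96% was not tested. Without oligodendrocyte lineage replicate 3 that share was 4.78%, and without replicates 1 and 2 it was 6.68% and 5.94%. The share of 0.5% became 1.2% without neurons replicate 1. Leaving out a library of the other group can only raise such a share or leave it unchanged. The direction of these changes was therefore fixed in advance and says nothing about the gaps.

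**Figure D3:**
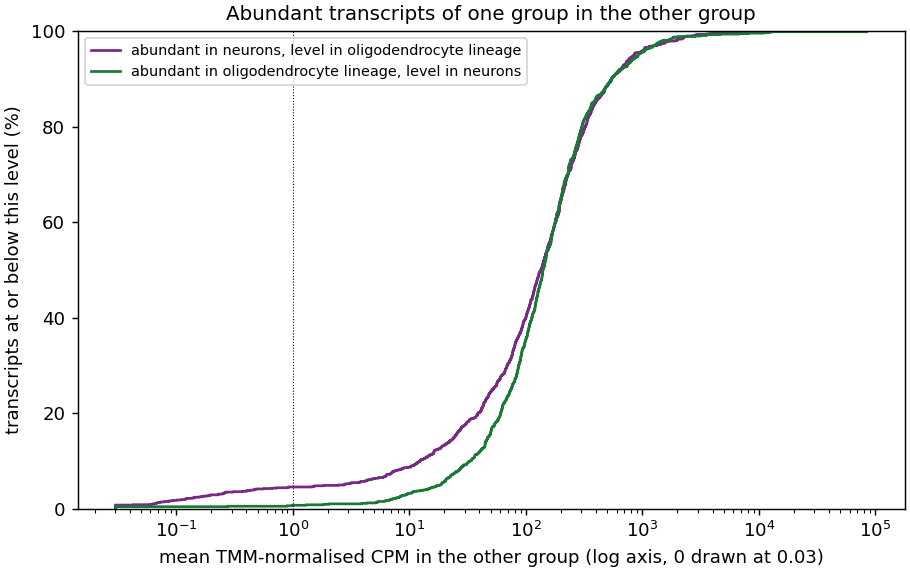
Cumulative share of transcripts, in percent, by mean level in the other group, in TMM-normalised CPM on a log axis, for the 1213 transcripts abundant in neurons (purple) and the 1000 abundant in the oligodendrocyte lineage (green). The curves run together at the right, and the purple curve is higher at the left, where transcripts are near 0 in the other group. The dotted line marks 1 CPM.

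The 48 abundant neuron transcripts that were near 0 in the oligodendrocyte lineage had means of 119 to 538 CPM in neurons, with a median of 191 CPM. Their median length was 3612 bases, and 45 of them were among the called transcripts. These calls largely follow from the choice of the 48, which used the same libraries. The oligodendrocyte lineage held 0 to 28 counts of each over its 3 libraries, with a median of 5. Counts appeared in each library, for 32 of the 48 transcripts in replicate 1, 32 in replicate 2 and 26 in replicate 3. In Schwann cells, 18 of the 48 were under 1 CPM in every library. Of all 1213 abundant neuron transcripts 67 (5.52%) were, and of all tested transcripts 19.5%. Another 15 of the 48 reached 100 CPM in at least 1 Schwann cell library, which was not counted for other transcripts.

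Among the 5 abundant oligodendrocyte lineage transcripts that were near 0 in neurons, 4 had no counts in any neuron library. A transcript of 772 bases was at 332, 289 and 236 CPM in the oligodendrocyte lineage. It had no counts in any neuron or Schwann cell library. Its mean of 286 CPM was at least 3741-fold higher than in neurons, where the 3 libraries together were set to a floor of 3 counts. This bound and those that follow use the oligodendrocyte lineage mean. They cover counting error in neurons and leave out the spread between libraries. A transcript of 1895 bases was at 145, 354 and 398 CPM, again with no counts in the 6 other libraries, its mean at least 3916-fold higher than in neurons. These 2 were the only ones of the 5 without a count in Schwann cells. They are described by length because they were chosen after their values were seen.

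A transcript of 2087 bases was at 151, 357 and 713 CPM in the oligodendrocyte lineage, its mean at least 5328-fold higher than in neurons. Schwann cells had 0.163 CPM in replicate 3 and none in the others. A transcript of 3443 bases was steadier, at 107, 114 and 112 CPM, its mean at least 1452-fold higher than in neurons. The only one of the 5 with neuron counts, of 2947 bases, was at 124, 255 and 501 CPM against 0.314, 0.271 and 0.244 CPM in neurons. All 5 were called, with edgeR adjusted p-values of 0.0159 to 0.0344. They were chosen for separate levels in the same libraries, so these p-values add no support.

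Transcripts found in every library of a group and absent from all 3 of the other were counted after the 6 libraries had been thinned to 11439731 counts each. At 1 CPM or more there were 637 on the neuron side and 72 on the oligodendrocyte lineage side. At 10 CPM or more there were 205 and 27, and at 50 CPM or more 22 and 7. The direction was the same at each limit, and the gap narrowed as the limit rose. At this depth the oligodendrocyte lineage libraries held 23839, 22583 and 18622 transcripts with at least 1 count, the neuron libraries 28160, 23447 and 24536. These numbers overlapped between groups (exact two-sided permutation p = 0.2, adjusted 0.233 over 7 such tests). Before thinning, 2663 transcripts were at 50 CPM or more in every neuron library, and 23 of these had no counts in the oligodendrocyte lineage. In the other direction it was 6 of 2071. The numbers that reach 1 or 10 CPM in every library of a group were not counted. The part of uneven detection in the counts of absent transcripts was not tested. A count of 0 allows up to 3 counts, which is 0.181 to 0.271 CPM in these libraries before thinning, and covers counting error only.

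The most abundant transcripts were compared per length, as TPM, which divides counts by effective length and scales each library to the same total. Of the 20 leading transcripts of each group, 8 were shared, and of the 100 leading ones 53 were shared. In the oligodendrocyte lineage 18 of the leading 100 were called higher there, and 0 were called higher in neurons. In neurons 11 of the leading 100 were called higher there and 3 were called higher on the glial side. Calls were more common at high levels. Above a mean of 1000 CPM over the 6 libraries, 55 transcripts were tested. Of these, 18.2% were called on the oligodendrocyte lineage side and 10.9% on the neuron side. From 100 to 1000 CPM the shares were 2.06% and 2.17% of 1938, beside 0.286% and 1.02% at all levels. These classes are by CPM over both groups, while the leading 100 are by TPM in 1 group. The shares are therefore not a direct background for the leading 100.

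The 10 most abundant transcripts of each library held 11.5%, 13.2% and 12.6% of TPM in neurons and 6.93%, 5.32% and 10% in the oligodendrocyte lineage. The leading one in neurons, of 2084 bases, reached 36000, 33200 and 28200 TPM in neurons and at 79.7, 717 and 91.9 TPM in the oligodendrocyte lineage (log2 fold change -6.87, SE 1.00, edgeR adjusted p = 0.0438). The next, of 5797 bases, was at 30900, 30300 and 25100 TPM in neurons and at 144, 838 and 156 TPM in the oligodendrocyte lineage (log2 fold change -6.33, SE 0.779, edgeR adjusted p = 0.0313). For both, oligodendrocyte lineage replicate 2 was higher than replicates 1 and 3, while staying far below neurons. Transcripts of 2009 and 2381 bases followed, with neuron means of 12400 ± 481 and 11100 ± 1080 TPM against 350 ± 135 and 248 ± 153 TPM (SD, n = 3 each, edgeR adjusted p = 0.0115 and 0.0146).

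The 217 transcripts called higher in neurons together held 13.0%, 12.4% and 11.1% of the TPM of the neuron libraries but 0.288%, 0.477% and 0.301% of the oligodendrocyte lineage libraries. These shares follow from the choice of the transcripts and are a description. The 61 called higher in the oligodendrocyte lineage held 5.33%, 5.89% and 5.43% there, against 0.66%, 0.646% and 0.667% in neurons. The neuron set was thus larger in number and in the RNA it took. Most of its TPM in neurons lay in the transcripts of 2084, 5797, 2009 and 2381 bases described above. The larger share therefore rests on these and does not describe the 217 as a whole.

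Among the leading 10 of each group, 5 lay without overlap above the other group on either side, and 4 of those in neurons and 2 of those in the oligodendrocyte lineage were called. Both were common at high levels. Of the 55 transcripts above a mean of 1000 CPM, 38.2% were separated with the oligodendrocyte lineage above and 27.3% with neurons above. Called were 18.2% and 10.9% of them. That class is by CPM over both groups, so it is not a direct background for the leading 10. The oligodendrocyte lineage transcripts ranked 3 and 4, of 2302 and 2358 bases, were at 6620 ± 636 and 6030 ± 64.8 TPM there and at 1060 ± 173 and 1190 ± 117 TPM in neurons (SD, n = 3 each). Their log2 fold changes were 2.64 (SE 0.209) and 2.35 (SE 0.193), both with an edgeR adjusted p of 0.0146. The transcript ranked 2, of 1558 bases, was at 14700, 9990 and 5930 TPM against 1980, 2870 and 3080 TPM in neurons, with groups that did not overlap, but it missed the threshold (edgeR adjusted p = 0.0628).

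The transcript ranked 5, of 1684 bases, had the widest gap of the leading 10. Levels were 3820, 6060 and 5050 TPM in the oligodendrocyte lineage, against 5.83, 0 and 15.9 TPM in neurons. Its log2 fold change was 9.36 with a standard error of 1.92, and it missed the threshold as well (edgeR adjusted p = 0.0656). Neuron replicate 2 was at 0 while the others were not. The part of this in the missed threshold was not tested.

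The leading transcript of the oligodendrocyte lineage by mean, of 1670 bases, did not separate the groups. Its levels were 4170, 768 and 30500 TPM there, against 5290, 13400 and 15600 TPM in neurons (edgeR adjusted p = 0.991). Its mean was set by oligodendrocyte lineage replicate 3. A transcript of 1471 bases, among the leading 10 of both groups, had the same pattern, with 1300, 780 and 11400 TPM against 1400, 8340 and 8270 TPM (edgeR adjusted p = 0.98). Both were high in oligodendrocyte lineage replicate 3 and in neurons replicates 2 and 3, and lower in the other 3 libraries.

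Schwann cells, which were not used to call the transcripts, had median levels between those of the groups in both directions. How many single transcripts lay between the groups was not counted. For the 61 transcripts higher in the oligodendrocyte lineage, medians were 600 CPM (oligodendrocyte lineage), 58.3 CPM (Schwann cells) and 27.3 CPM (neurons). Every Schwann cell library was below every oligodendrocyte lineage library for 48 of the 61 (78.7%), beside 11.9% of all 21324 tested transcripts. Every Schwann cell library was above every neuron library for 19 (31.1%), beside 6.29% of all tested, and below for 9 (14.8%), beside 20.8%. On the scale of log2(CPM + 1), the Schwann cell mean was nearer to the oligodendrocyte lineage than to neurons for 24 of the 61, or 39.3%, where the share over all tested transcripts was 50.4%.

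For the 217 transcripts higher in neurons, medians were 0.0711 CPM (oligodendrocyte lineage), 7.83 CPM (Schwann cells) and 100.4 CPM (neurons). Every Schwann cell library was below every neuron library for 149 of the 217 (68.7%), beside 20.8% of all tested transcripts. Against the oligodendrocyte lineage, every Schwann cell library was higher for 60 (27.6%), beside 5.46% of all tested, and lower for 10 (4.61%), beside 11.9%. A total of 77, or 35.5%, were under 1 CPM in every Schwann cell library, beside 19.5% of all tested transcripts. The Schwann cell libraries often disagreed with each other: another 77 of the 217 had at least 10 CPM in a Schwann cell library and under 1 CPM in another, and so did 36.7% of all tested transcripts. Because the transcripts were chosen for extreme levels in the other groups, these positions are a description and carry no test.

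**Figure D4:**
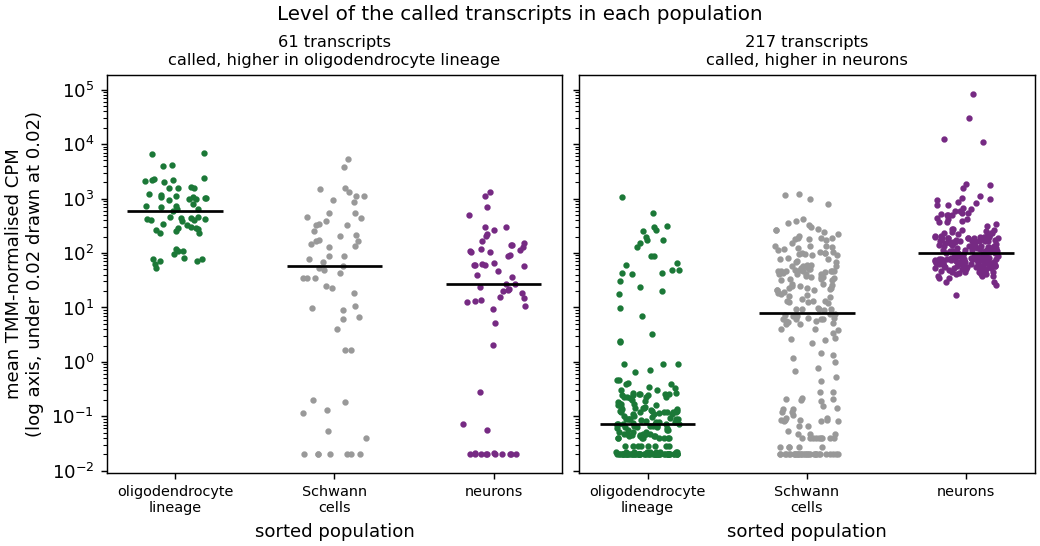
Mean TMM-normalised CPM on a log axis of each called transcript in the oligodendrocyte lineage, Schwann cells and neurons, with 61 transcripts at the left and 217 at the right and a black line at each median. Schwann cell medians of 58.3 and 7.83 CPM lie between the medians of the other populations, and the Schwann cell points spread over the widest range at the right.

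Transcript length also differed somewhat between the populations. Weighted by TPM, the mean length of the expressed transcripts was 2141, 2240 and 2062 bases in oligodendrocyte lineage libraries, against 2374, 2357 and 2279 bases in neuron libraries. All neuron libraries lay above all oligodendrocyte lineage libraries, with means of 2337 ± 50.6 and 2148 ± 88.8 bases (SD, n = 3 each). The exact two-sided permutation p was 0.1, the smallest that 3 against 3 allows, and 0.175 after adjustment over 7 tests. Without the 10 most abundant transcripts of each library the difference (oligodendrocyte lineage minus neurons) was -52.8 bases in place of -189.1, and the libraries overlapped (exact permutation p = 0.3).

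Transcripts of 5000 bases or more took 4.98%, 6.07% and 4.95% of TPM in oligodendrocyte lineage libraries, against 8.99%, 9.48% and 8.42% in neurons (exact permutation p = 0.1, the smallest possible, adjusted 0.175). Much of that gap was the single neuron transcript of 5797 bases. Without it the shares were 4.97%, 5.98% and 4.94% against 5.89%, 6.45% and 5.91%, which overlapped (exact permutation p = 0.3). Transcripts under 1000 bases took 21.0% ± 1.56 in the oligodendrocyte lineage against 17.5% ± 0.482 in neurons (SD, n = 3 each), without overlap (exact permutation p = 0.1, adjusted 0.175). The shares of a library add up to a fixed total, so the classes are not independent. What the abundant neuron transcripts of 2084, 5797, 2009 and 2381 bases take is missing from the other classes in neurons. Their part in the gap under 1000 bases was not tested.

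**Figure D5:**
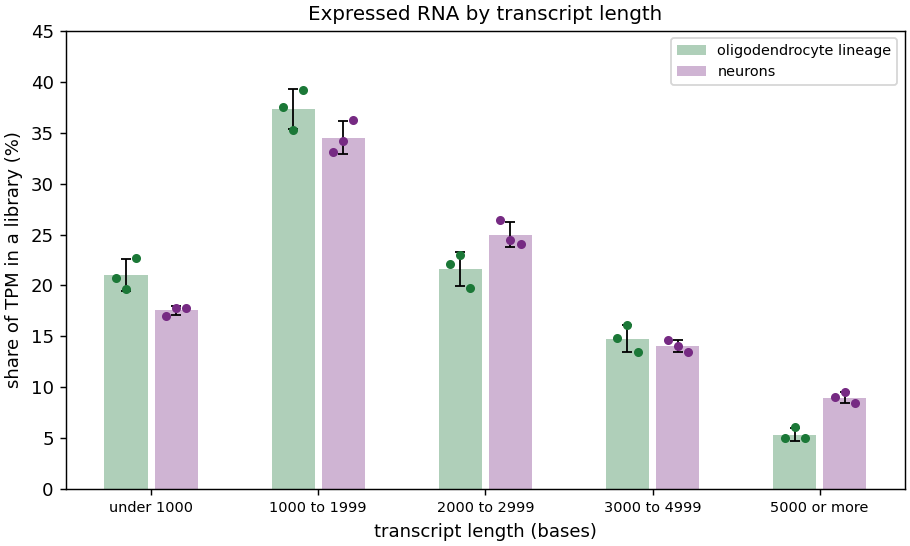
Share of TPM, in percent, by transcript length class in bases, with a point for each library, bars at the mean of 3 libraries and error bars of 1 SD. Neurons lie higher at 5000 bases or more, 8.96% against 5.33% on average, and at 2000 to 3000 bases. The abundant neuron transcripts of 2084, 2009 and 2381 bases fall in the class of 2000 to 3000 bases. Their means were 32500, 12400 and 11100 TPM in neurons against 296, 350 and 248 TPM in the oligodendrocyte lineage. The share of this class without them was not computed. The oligodendrocyte lineage lies higher under 1000 bases.

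The fold change also varied with length over the whole table. By class, its median was 0.185 on the log2 scale for transcripts under 1000 bases, 0.0113 for 1000 to 2000 bases, -0.0792 for 2000 to 3000 bases, -0.118 for 3000 to 5000 bases and -0.264 for longer ones, where negative values are higher in neurons. The called transcripts were longer than all tested ones on both sides, with medians of 2782 bases for those higher in the oligodendrocyte lineage and 2577 bases for those higher in neurons, beside 2317 bases. Of transcripts of 5000 bases or more, calls on the oligodendrocyte lineage side numbered 12 and those on the neuron side 41, of 2924 tested. These shares of 0.41% and 1.4% were near the 0.286% and 1.02% of all tested transcripts. Length and counts are linked, since longer transcripts draw more reads at the same abundance, and the part of this in the calls was not tested.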

How the data were processed

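The deposited tables hold, per the file headers, a transcript length and effective length in bases and an estimated count for each of 52216 transcript IDs, with 1 table per library. The build danRer10 and the tools RSEM 1.2.15, Bowtie2 2.1.0, Trimmomatic and FastQC come from the submitters' processing notes, without roles. The program behind the tables is not given in the sources used here, nor is the annotation release. Per the labels' protocols, RNA was amplified with a SMART-Seq kit for very low input. Reads carry no molecular identifiers, so PCR copies are counted and intervals and floors cover counting error only. Estimated counts divide reads between similar transcripts, so the level of an ID can carry reads from another.

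Estimated counts were rounded and tested per transcript in R 4.3.3 with edgeR 4.0.16: filterByExpr by group (21324 kept, 30892 left out), TMM factors and quasi-likelihood tests on 6 libraries, fitting group alone (4 residual degrees of freedom, common biological coefficient of variation 1.32). Standard errors are implied by the fold change and its F statistic. Schwann cell levels were put on the same scale with the same reference library. TPM was computed from counts and effective lengths.

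The comparison, the rule and the lists were chosen with earlier results of these data known, including that a fit of 9 libraries called fewer transcripts. Named transcripts were the first 2 per direction, by adjusted p with ties by size, among called ones with a log2 fold change of at least 1 in size, 50 CPM or more on average where higher, and separate groups. Detection and length were compared with exact permutation tests. Alternatives included DESeq2 1.42.0 and limma 3.58.1. Gene lists and cell type markers were not used, because IDs have no gene names here. The test was first run on simulated data to check the code, and no result here rests on that run. Sequences are not printed.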

Additional observations from a re-analysis of the deposited data

How the results depend on the processing

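The count of 278 calls kept its direction, more calls in neurons, wherever calls were made, and its size moved with most choices. It was 20 and 47 with all 9 libraries, on their own and on the same transcripts, 656 with at least 10 CPM in 3 libraries, 2684 with DESeq2, 1724 with limma voom, 1810 and 1708 with limma on log2(TPM + 1) and log2(TPM + 0.1), and 154 on transcripts with whole-number counts. DESeq2 size factors, upper-quartile factors, no filter, an effective length offset and thinning gave 255 to 304. Without each library in turn it was 0 to 261. Settings chosen after seeing the data gave 146 with at least 1 count in each group, 163 with a robust fit, and, on the same transcripts, 132, 11 and 294 without oligodendrocyte lineage replicates 1, 2 and 3 and 0 without each neuron library. The share of calls higher in the oligodendrocyte lineage was 21.9%. It was 40% and 31.9% with all 9 libraries, 29.6% with DESeq2, 26.3% with upper-quartile factors and 13.6% on transcripts with whole-number counts. Same-numbered libraries of both groups did not deviate together (correlations 0.0106, -0.00885 and -0.00259). With 3 libraries per group this cannot settle whether the numbers pair clutches or sorts. With the number as a replicate block edgeR called 0, with 2077 at an unadjusted p under 0.05. The named transcripts kept their direction in every setting that tested them. Transcripts at 0 in the other group numbered 27 and 7 (oligodendrocyte lineage) and 205 and 22 (neurons) at 10 and 50 CPM, from 72 and 637 at 1 CPM. Mean length and detection kept their direction throughout. In each case the cause was not tested. Depth limits values under about 0.3 CPM.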
